A study of Mus musculus with 9 samples.

Results

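The cultures described here are helper T lymphocytes, CD4+ T cells of the mouse spleen, that had been stimulated for 18 h and had received no exosomes. They are the 3 PBS libraries of a series of 9, chosen by their treatment label alone, and the other 6 libraries, from cultures given exosomes, were not used. The donors were wild-type male mice, from 6 to 12 weeks old. They were grown in RPMI-1640 with fetal bovine serum, on beads carrying antibodies to CD3 and CD28 and with 5 ng/mL of recombinant mouse IL-2, and phosphate-buffered saline took the place of the vesicles. How the CD4+ cells were isolated, and how pure they were, is not given in the sources used here. The labels do not say that the 3 cultures came from separate mice, although the design text calls them biological replicates, so the spread between them may be technical. No unstimulated culture is among the libraries analysed, and a level below is therefore a level of the stimulated state and not an induction.

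A T cell needs a signal through the T cell receptor, whose CD3 chains the first antibody binds, and a second signal through CD28. Together they switch on NFAT, NF-kB and AP-1, the factors that drive Il2 and other cytokine genes, and the alpha chain of the IL-2 receptor, which raises the cell's affinity for IL-2. The cell then grows, takes up more glucose, amino acids and iron, builds ribosomes and enters the cell cycle. As a bulk measurement each library averages over all cells of a culture, and fewer cells of a type cannot be told apart from less RNA per cell.

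Each PBS library held between 28412418 and 30464334 counts assigned to genes, and 20120 to 20373 genes had at least 1 count. Levels are given in CPM, a gene's counts per 1000000 counts of its library, and in TPM, the same for transcripts, which divides by gene length first and is the scale on which genes are compared with each other. Values are the mean ± SD of the 3 libraries (n = 3), and 3 counts, the limit that a count of 0 allows, correspond to 0.0985 to 0.106 CPM, a limit that covers counting error only. A gene is called expressed here at 1 CPM or more in every library, and near 0 below 0.1 CPM in every library. By that rule 11241 of 55536 genes (20.2%) and 10479 of 22028 protein-coding genes (47.6%) were expressed, while 31227 genes had no count in any of the 3 libraries. The median expressed gene stood at 35.9 CPM and 31.6 TPM. Protein-coding genes held 98.0 to 98.1% of the counts of each library and mitochondrially encoded genes 2.32 to 2.37%. Of the 13 mitochondrial messengers 6 were listed near 0, as described below, so the mitochondrial share is uncertain.

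The counts were spread over many genes. The leading gene held 0.708% of the counts, the 10 leading genes 5.24% and the 100 leading genes 16.9%, and 985 genes together held 50%. Actb, the beta-actin gene (chr5:142903115-142906754, minus strand, GRCm38), led with 7212, 7095 and 6929 CPM in replicates 1, 2 and 3. Eef2, the elongation factor that moves the ribosome along the messenger, followed with 6949, 6991 and 6914 CPM (chr10:81176631-81182498, plus strand). Next came mt-Co1, a cytochrome oxidase subunit encoded in the mitochondrion, at 6175 ± 134 CPM, and mt-Nd1, mt-Cytb, mt-Nd5 and mt-Nd2, other messengers of the mitochondrion, stood at 4600, 4428, 2912 and 2549 CPM. Hsp90ab1, a cytosolic chaperone, stood at 6063 ± 119 CPM, Eef1a1, which brings aminoacyl-tRNA to the ribosome, at 4065 CPM, Ncl, the nucleolar protein nucleolin, at 3976 ± 144 CPM, and Rpl4, a protein of the large ribosomal subunit, at 3156 CPM. Among the 25 genes with the most counts were also Pabpc1 (2726 CPM), which binds poly(A) tails, Tubb5 (2314 CPM), a beta-tubulin, Rack1 (2122 CPM), Rpl8 (1805 CPM), Eif4g2 (1648 CPM), and the splicing and RNA-binding genes Srrm2 (2194 CPM), Hnrnpu (1988 CPM) and Serbp1 (1670 CPM).

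A few of those 25 genes belong to the T cell and its activation. Irf4, a transcription factor whose level rises with the strength of T cell receptor signalling, ranked 16 with 2165, 2160 and 2137 CPM (chr13:30749226-30766976, plus strand). Il2ra, the alpha chain of the IL-2 receptor, ranked 18 with 1993, 1992 and 1999 CPM (chr2:11642807-11693193, plus strand). The MHC class I genes B2m and H2-K1 ranked 21 and 22 at 1973 ± 38.8 and 1913 ± 31.4 CPM, and Myh9, the heavy chain of non-muscle myosin, came just before them at 1975 CPM. Gm42418, a predicted noncoding gene known to overlap a ribosomal RNA unit, had 6276, 5346 and 6109 CPM, and 94.9% of its 50-base windows occur in another annotated gene as well. Per length the order changed: mt-Nd1 (18325 TPM), mt-Co1 (15236 TPM) and mt-Cytb (14756 TPM), subunits of the respiratory chain encoded in the mitochondrion, led, followed by Gm42418 (12305 TPM), Actb (10072 TPM), mt-Nd2 (9361 TPM), B2m (8746 TPM), Eef2 (7972 TPM), Hsp90ab1 (7706 TPM) and Eef1a1 (6215 TPM).

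**Figure D1:**
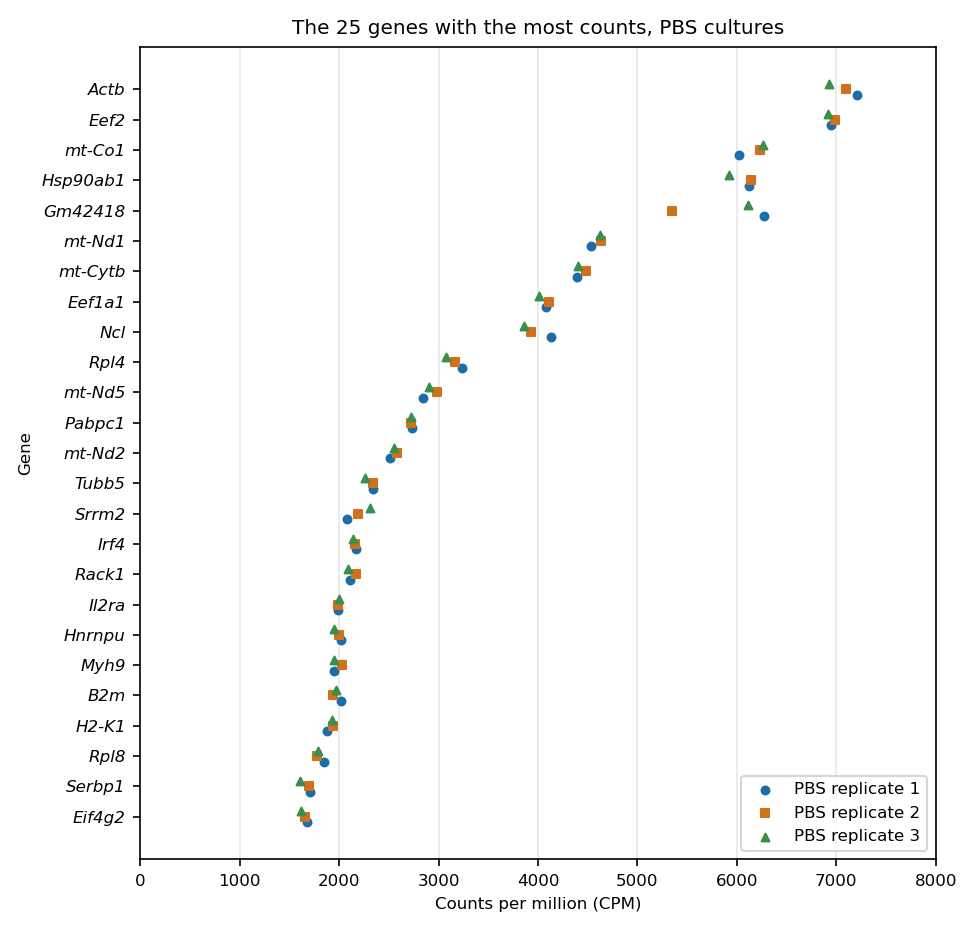
CPM of the 25 genes with the most counts (horizontal axis, linear) in each PBS library, with 1 symbol for each replicate. Actb and Eef2 lie highest, Irf4 and Il2ra stand among the splicing and ribosomal genes in the lower part, and Gm42418 has the widest gap between libraries, from 5346 to 6276 CPM.

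Some genes that every cell uses were listed at or near 0, and most of these share sequence with another annotated gene. The mitochondrion encodes 13 messengers. Of these, mt-Nd1, mt-Nd2, mt-Nd4, mt-Nd5, mt-Nd6, mt-Co1 and mt-Cytb were expressed, while mt-Co2, mt-Co3, mt-Atp6, mt-Atp8 and mt-Nd4l were listed at 0 CPM and mt-Nd3 at 0.0446 CPM. The windows of 50 bases that occur in another gene made up 100% of mt-Co2, 99.9% of mt-Co3, 99.5% of mt-Atp6, 98.8% of mt-Nd4l and 98.0% of mt-Nd3, and the other copies are mitochondrial pseudogenes on chromosome 1, listed at 0 CPM too. In mt-Nd1, mt-Cytb and mt-Nd6 the share was 0%. The exception was mt-Atp8, at 0 CPM with 0 of its 155 windows shared. mt-Co1 and mt-Nd4 were expressed although 51.1% and 62.2% of their windows are shared. How reads that align to more than 1 place were counted is not given in the sources used here. To show how exact such copies are, a stretch of mt-Co3 (bases 368 to 417 of its transcript) that recurs in the pseudogene Gm28437 (chr1:24613189-24613971) and a stretch of the actin gene Actg1 (bases 611 to 660) that recurs in the pseudogene Gm12715 (chr4:103563402-103564529) read as follows, 5′ to 3′.
mt-Co3: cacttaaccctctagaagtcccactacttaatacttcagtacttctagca
Actg1: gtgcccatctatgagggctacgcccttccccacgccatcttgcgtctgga

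The same caution touches nuclear genes named below. Actg1, the gamma-actin gene, stood at 6.95 TPM with 56.7% of its windows shared with 22 genes, beside 10072 TPM for Actb with 14.2% shared. Over the genes of all lists used here, the 42 genes with 50% or more of their windows shared had a median of 16.1 TPM and 10 of them had no count, against 74.7 TPM and 10 of 574 genes where under 10% was shared. The 123 genes with 10 to 50% shared had a median of 121 TPM, and 2 had no count. Within families the medians did not fall steadily with sharing. At under 10%, 10 to 50% and 50% or more they were 165, 103 and 124 TPM for ribosomal protein genes. For glycolysis and lactate export they were 93.4, 361 and 147 TPM. Since the counting of reads with several alignments is not given, levels of Actg1, Tuba1a, Tuba1b, Pgk1, Pgam1, Eno1, Gapdh, Cycs, Hspa1a, Hspa1b, Bcl2a1b, Bcl2a1d and of many ribosomal protein genes are uncertain. A low value for them says little about the messenger. Trbc1 and Trbc2, the paired beta chain constant genes, share 41.1% and 44.0% of their windows with each other, and the split between them is uncertain as well. The strand setting of the counting is not given either, so reads of overlapping or antisense genes could have been joined.

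The label CD4+ T cell was checked against the genes that define the lineage, and all 22 of 22 genes of the T cell receptor complex and lineage were expressed, at a median of 404 TPM against 31.6 TPM over all expressed genes. Trac, the constant region of the receptor's alpha chain (chr14:54220521-54224206, plus strand), stood at 384, 392 and 378 CPM. The beta chain constant genes Trbc1 and Trbc2 had 97.9 ± 1.84 and 185 ± 5.46 CPM. Cd3e, the CD3 chain that the bead antibody binds, stood at 481, 478 and 466 CPM (chr9:44998740-45009627, minus strand). Cd4, the coreceptor that reads MHC class II (chr6:124864692-124888221, minus strand), had 883, 872 and 850 CPM and 821 TPM. Cd2, an adhesion receptor, reached 1554 TPM and Ets1, a lymphocyte transcription factor, 692 TPM. The lowest of the 22 was Zbtb7b, the factor that commits thymocytes to the CD4 lineage, at 158, 165 and 167 CPM (111 TPM). All 3 libraries were close for every gene of this group, whose summed level was 11226 ± 77.9 CPM.

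The receptor genes were used broadly. Of 22 Trbv genes, the variable segments of the beta chain, all had counts in every library and 20 were expressed, with a summed level of 279 ± 2.36 CPM. By counts Trbv1 took the largest share, 10.5% of that sum at 29.3 CPM, followed by Trbv13-2 with 25.1 CPM and Trbv31 with 24.9 CPM. Per length Trbv13-2 stood at 282 TPM and Trbv1 at 268 TPM, and their ranges over the libraries overlapped. Of 108 Trav genes of the alpha chain, 68 had a count in some library and 19 were expressed, with a sum of 67.8 ± 1.69 CPM, and Trav14-1, at 5.09% of the sum, led. No single segment dominated either chain as counted. Windows shared among the variable segments were not computed. Levels of segments with close copies, and the order among them, are therefore uncertain. These are gene counts, and receptor sequences of single cells were not analysed here.

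The labels give male mice, and the sex-linked genes were read as a check. Ddx3y, Eif2s3y, Kdm5d and Uty, on the Y chromosome, stood at 107 ± 4.63, 62.5 ± 1.35, 54.4 and 22.2 CPM. Xist, the RNA that silences an X chromosome in females, had 2, 3 and 0 counts.

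The surface receptors of an activated T cell were all present. Of 20 genes of surface activation and costimulation, 20 were expressed, at a median of 207 TPM and a summed level of 6044 ± 24.2 CPM. Tnfrsf4, the receptor OX40, was highest per length at 1662 ± 43.5 TPM (594, 613 and 580 CPM, chr4:156013843-156016612, plus strand), followed by Il2ra at 1331 ± 8.12 TPM, Cd53, a tetraspanin, at 1056 TPM, and Tnfrsf18, the receptor GITR, at 790 TPM. Icos, a costimulatory receptor of the CD28 family, stood at 409, 383 and 393 CPM. Tfrc, the transferrin receptor that takes up iron, stood at 637, 636 and 605 CPM. Cd69, an early activation marker, had 154, 148 and 147 CPM, and Cd44, an adhesion receptor high on antigen-experienced cells, 94.5, 93.2 and 93.2 CPM. Cd40lg, the ligand with which helper cells instruct B cells, stood at 40.2 ± 1.94 CPM and 123 TPM. Cd226 was lowest of the list at 20.2 TPM.

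Among 31 activation transcription factors 30 were expressed, and the exception was Mycn at 0.445 CPM. Irf4 led at 1675 ± 5.22 TPM. Myc, which drives growth and metabolism in activated T cells (chr15:61985391-61990374, plus strand), had 645, 654 and 616 CPM and 896 TPM. The AP-1 genes Jund and Junb stood at 820 and 710 TPM, and Hif1a, a regulator of glycolysis, at 545 TPM. The orphan nuclear receptors of the Nr4a family, early targets of receptor signalling, were unequal per length: Nr4a3 stood at 519 ± 32.2 TPM, Nr4a1 at 242 ± 11.9 TPM and Nr4a2 at 10.8 ± 0.409 TPM, and their ranges over the libraries did not overlap. The immediate early gene Fos stood at 16.9 TPM and Fosb at 1.48 TPM, while Batf, an AP-1 factor that works with Irf4, stood at 215 TPM. Irf8, a relative of Irf4 best known from myeloid and B cells, had 551, 535 and 532 CPM and 291 TPM.

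All chains of the high-affinity IL-2 receptor were among the higher cytokine receptor messengers. Of 26 cytokine receptor genes 24 were expressed, the exceptions being Il23r at 0.435 CPM and Il1r1 at 0.959 CPM. Il2ra and Il2rb, the alpha and beta chains, stood at 1331 and 1137 TPM, and Il2rg, the common gamma chain shared with other interleukin receptors, at 383 TPM. Il2rb had 1273, 1323 and 1240 CPM (chr15:78479256-78495271, minus strand). Il4ra, the IL-4 receptor chain, stood at 499 TPM, Il21r at 294 TPM, and the chains of the IL-12 receptor, Il12rb1 and Il12rb2, both at 246 TPM. Il7r, the receptor through which resting T cells receive survival signals, stood at 31.2 ± 1.32 CPM (25.5 TPM). Cish, a suppressor that IL-2 signalling switches on through STAT5, had 611, 623 and 600 CPM.

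The cytokines themselves were a short list of high messengers and a long list of low ones. Of 33 secreted cytokines and chemokines 20 were expressed and 13 lay between the limits, with a median of 11.8 TPM. Lta, lymphotoxin alpha, was highest per length at 851 ± 21.5 TPM (301, 315 and 310 CPM), then its partner Ltb, lymphotoxin beta, at 658 ± 9.60 TPM (259, 264 and 263 CPM). Both genes flank Tnf on chromosome 17, and Tnf, the tumour necrosis factor gene, stood at 252 ± 7.79 TPM (106, 107 and 111 CPM). Mif, an inflammatory mediator, stood at 591 TPM with 40.5% of its windows shared with other genes, Lif, a cytokine of the IL-6 family, at 409 TPM (472, 479 and 448 CPM), and Tgfb1 at 234 TPM. Ccl22, a chemokine that attracts CCR4-bearing cells, had 101, 103 and 114 CPM.

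Il2 itself, the growth factor also added to the medium (chr3:37120523-37125959, minus strand), stood at 20.1, 22.7 and 24.6 CPM, that is 74.98 ± 7.83 TPM. The signature cytokines of the helper subsets were lower. Ifng, interferon gamma, had 4.01, 6.93 and 4.96 CPM (15.6 TPM). Il4, the Th2 cytokine, stood at 4.47, 3.24 and 3.71 CPM (11.8 TPM), and Il13, its neighbour, at 8.97 ± 2.07 CPM (28.4 TPM). Il17a, of Th17 cells, stood at 1.21 ± 0.298 CPM (3.95 TPM). Il21 stood at 18.7 ± 3.42 CPM and Il10, an anti-inflammatory cytokine, at 3.32 ± 0.817 CPM. Csf2 and Il3 lay under 1 CPM on average, at 0.881 and 0.435 CPM, and Ccl1 was lowest per length at 0.458 TPM. On the TPM scale the ranges of Il2 and Ifng over the libraries did not overlap, while those of Ifng and Il4 did. Gzmb, the cytotoxic protease granzyme B, stood at 46.9 ± 2.17 CPM and 125 TPM, beside 2.40 TPM for Prf1, the perforin that lets granzymes into a target cell.

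**Figure D2:**
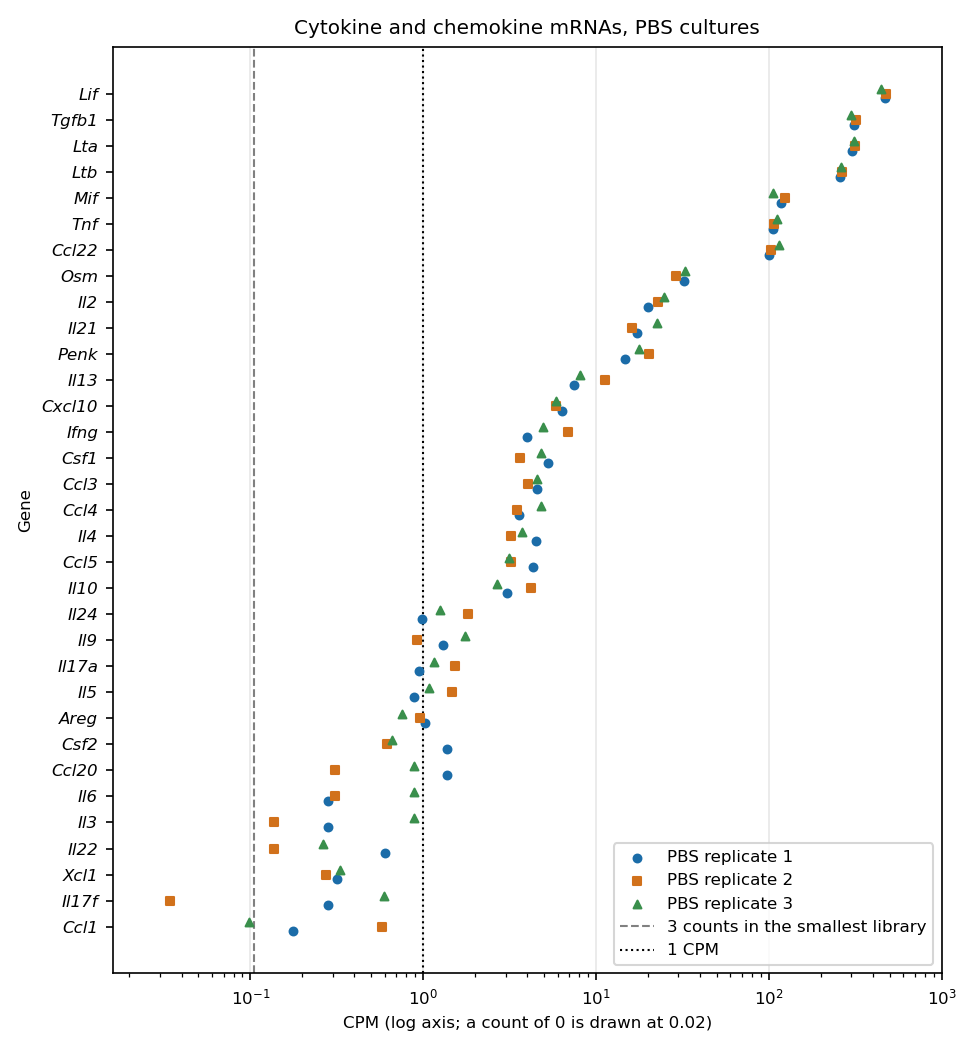
CPM (log axis) of the 33 cytokine and chemokine genes in each PBS library, ordered by mean, with 1 symbol for each replicate, a dotted line at 1 CPM and a dashed line at 3 counts of the smallest library. Lif, Tgfb1, Lta and Ltb lie above 200 CPM in all libraries, Il2 between 20.1 and 24.6 CPM, and Ifng, Il4 and Il10 below 10 CPM.

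The stretches before the start sites of Il2 and Lta are printed because these genes differ in level while both belong to the classical targets of T cell receptor signalling. The sequences are the 250 bases before the RefSeq start on build GRCm38.p6, Il2 at chr3:37125955-37126204 and Lta at chr17:35205352-35205601, both on the minus strand, written 5′ to 3′, and capitals mark GGAAA, the core letters of NFAT sites, on either strand (TTTCC is its complement).
Il2: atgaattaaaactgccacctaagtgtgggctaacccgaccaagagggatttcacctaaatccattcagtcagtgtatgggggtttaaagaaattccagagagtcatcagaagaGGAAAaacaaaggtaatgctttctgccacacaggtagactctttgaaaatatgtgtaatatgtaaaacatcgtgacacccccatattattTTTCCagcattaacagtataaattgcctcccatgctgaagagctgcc
Lta: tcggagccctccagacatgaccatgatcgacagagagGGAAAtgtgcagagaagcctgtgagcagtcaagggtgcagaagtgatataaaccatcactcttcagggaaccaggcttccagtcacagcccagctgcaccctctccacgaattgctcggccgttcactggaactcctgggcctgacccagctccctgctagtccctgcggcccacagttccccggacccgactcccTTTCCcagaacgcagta
Each stretch holds 2 matches to GGAAA and 1 to TATAAA, and neither holds the AP-1 letters TGANTCA, where N is any base. Of the 33 cytokine genes 27 matched a promoter in the RefSeq table, and GGAAA occurred in 23 of the 27, TATAAA in 9 and TGANTCA in 5. Over all 32851 promoters of the same length GGAAA occurred in 55.6%, TATAAA in 12.4% and TGANTCA in 6.75%. A match describes letters and is not a site, and the absence of a match says only that these letters are not in this window.

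All 22 factors that mark or steer helper subsets were expressed, at a median of 57.0 TPM. Tbx21, the gene of the Th1 factor T-bet (chr11:97098071-97115331, minus strand), led at 347 ± 3.65 TPM, with 225, 229 and 225 CPM. Gata3, the Th2 factor that all CD4+ T cells carry at some level, stood at 176 ± 7.22 TPM (182, 177 and 191 CPM). Foxp3, the factor of regulatory T cells (chrX:7573644-7595245, plus strand), stood at 150 ± 2.89 TPM (181, 176 and 182 CPM), with 13.9% of its windows shared, most of them with the overlapping gene Ccdc22. Bcl6, the follicular helper factor, was much lower, at 4.11 ± 0.494 TPM. On the TPM scale the order Tbx21, Gata3, Foxp3, Bcl6 held in every library without overlap of neighbours. The signal transducers Stat6 (265 TPM), Stat5b (204 TPM), Stat3 (197 TPM) and the factor Runx3 (194 TPM) stood beside the first of these. A bulk library does not show whether such factors were in the same cells.

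Genes of naive or resting T cells were present beside the activation genes. All 22 of 22 genes of that list were expressed, at a median of 117 TPM. Ccr7, the chemokine receptor that leads cells into lymph nodes (chr11:99144196-99155077, minus strand), had 748, 754 and 726 CPM and was highest at 1431 ± 23.5 TPM. Tcf7 and Lef1, partner factors of naive and memory T cells, stood at 1319 ± 5.44 and 228 ± 3.31 TPM. Satb1, a chromatin organiser of T cells, had 1428, 1427 and 1449 CPM. Klf2, a factor that keeps T cells quiescent and drives S1pr1, stood at 62.2, 62.6 and 66.2 CPM (131 TPM). Pik3ip1, which restrains PI3 kinase, was lowest at 15.1 TPM. Of 24 chemokine and homing receptors 19 were expressed. Below Ccr7 came the integrin chains Itgb2 (533 TPM) and Itgal (440 TPM). Selplg, an adhesion ligand, stood at 409 TPM. Ccr8 and Ccr4, receptors often found on regulatory and Th2 cells, stood at 268 and 126 TPM, and Ccr10 and Ccr3 were near 0, both at 0.0117 CPM.

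Brakes of the response were also there: 17 of 20 inhibitory receptors and signalling inhibitors were expressed, at a median of 101 TPM. Cish led at 363 TPM, Lag3, which binds MHC class II, stood at 356 TPM (192, 190 and 209 CPM), Ctla4, the inhibitory partner of CD28, at 346 TPM (220, 213 and 201 CPM), and the phosphatase gene Dusp5 at 342 TPM. Pdcd1, the gene of PD-1, stood at 54.8 ± 2.78 TPM. Havcr2, the gene of TIM-3, lay at 0.884 CPM and Cd244a was lowest at 0.324 CPM.

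Messengers of the G1 and S phases of the cell cycle stood above those of mitosis per length. Of 36 G1 and S genes 35 were expressed, at a median of 101 TPM, and all 24 genes of G2 and mitosis were expressed, at a median of 35.6 TPM. Mcm3, a subunit of the replicative helicase, led with 657 TPM, Ccnd2, the D-type cyclin of lymphocytes, followed at 647 ± 15.3 TPM (1639, 1604 and 1550 CPM), and Mcm4, another helicase subunit, came next at 615 TPM. Ccnd1, the cyclin D of many other cell types, was the gene below the limit, with 21, 17 and 18 counts (0.637 CPM). Pcna, the sliding clamp of DNA polymerase, stood at 252, 259 and 235 CPM. Top2a and Mki67, both highest in dividing cells, led the mitotic list at 208 ± 4.39 and 185 ± 1.88 TPM, and Ccna2, cyclin A2, came next at 87.8 TPM. Ccnb1, the mitotic cyclin B1, was lowest at 5.01 TPM, with 42.1% of its windows shared with a pseudogene and others. Of 10 cell cycle inhibitors 8 were expressed, led by Cdkn1a (121 TPM) and Cdkn1b (90.3 TPM), and Cdkn2a stood at 0.297 CPM. Cell cycle phases were not measured in single cells.

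Among genes of glucose metabolism the messengers of a few enzymes were listed highest. Of 24 genes of glycolysis and lactate export 23 were expressed, at a median of 143 TPM and a summed level of 8560 ± 314 CPM. Aldoa, aldolase A, stood at 1901 ± 93.7 TPM, Ldha, the lactate dehydrogenase subunit of fermenting cells (chr7:46841475-46855627, plus strand), at 1528 ± 40.4 TPM with 1335, 1360 and 1284 CPM, and Pkm, pyruvate kinase, at 1236 ± 52.0 TPM. Tpi1, Gpi1 and Gapdh followed with 721, 468 and 255 TPM. With the longest transcript as gene length Aldoa, Ldha and Pkm stood at 2725, 2125 and 1938 TPM, in the same order. The glucose transporter Slc2a1 (GLUT1) stood at 164, 181 and 161 CPM (183 TPM) and Hk2, the hexokinase that growth signals raise, at 251, 255 and 232 CPM (157 TPM). Per length Slc2a1 stood above Slc2a3 (30.3 TPM), another glucose transporter, and Ldha above Ldhb (59.5 TPM), without overlap between libraries. The liver and red cell enzyme Pklr was at the level of 3 counts, 0.102 CPM. Gapdh, Pgk1 (24.6 CPM) and Pgam1 (12.0 CPM) are among the genes with many copies named above. All 7 genes of the pentose phosphate pathway were expressed, from Tkt, transketolase, at 408 TPM to Rpia at 45.9 TPM.

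Genes of mitochondrial metabolism were expressed throughout. All 23 genes of the tricarboxylic acid cycle and its supply were expressed, at a median of 166 TPM, with Mdh2 (394 TPM), Acly (385 TPM), Sdha (332 TPM) and Sdhd (315 TPM) highest and the cytosolic dehydrogenase Idh1 lowest at 5.36 TPM. All 35 nuclear genes of the respiratory chain were expressed, at a median of 226 TPM. The ATP synthase subunits Atp5a1 and Atp5b led with 1353 and 1302 TPM, an order that turned, at 1210 and 2195 TPM, with the longest transcript as gene length, and Cycs, cytochrome c, was lowest at 2.58 TPM, with 28.5% of its windows shared with 76 genes. Fatty acid oxidation had 16 of 17 genes expressed at a lower median of 27.8 TPM: Acadvl, the very long chain dehydrogenase, stood at 131 TPM, Cpt1a, the carnitine transferase that admits fatty acids to the mitochondrion, at 18.9 TPM, and the muscle form Cpt1b at 0.306 CPM.

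For lipids, 10 of 13 genes of fatty acid synthesis were expressed. Scd2, a desaturase, stood at 350 ± 15.5 TPM and Fasn, the fatty acid synthase, at 328 ± 9.15 TPM with 924, 970 and 928 CPM. The related desaturases were far lower, Scd1 at 2.42 TPM and Scd3 at 0.0228 CPM, and Me1, the malic enzyme, had 0.138 CPM. All 21 genes of cholesterol synthesis and uptake were expressed at a median of 39.7 TPM, led by their master regulator Srebf2 at 219 ± 5.25 TPM. Cyp51, a demethylase of the pathway, stood at 118 TPM. Fdps was lowest at 3.81 TPM. Of 12 genes of cholesterol efflux and lipoproteins 10 were expressed, and Nr1h2, the liver X receptor beta, stood at 160 TPM, Nr1h3, its alpha form, at 0.549 CPM, and Abcg1, a cholesterol exporter, at 34.8 TPM.

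Supply of building blocks was led by the transporters and one-carbon enzymes known from growing T cells. All 15 genes of amino acid transport and glutamine use were expressed. Slc7a5, which carries large neutral amino acids (chr8:121881150-121907694, minus strand), stood at 535, 545 and 589 CPM (572 TPM), Slc1a5, a glutamine carrier, at 521 TPM, and Slc3a2, the partner chain of Slc7a5, at 349 TPM, while Slc7a11, the cystine carrier, was lowest at 1.36 TPM. All 12 serine and one-carbon genes were expressed, with Shmt2, the mitochondrial serine hydroxymethyltransferase, at 1003, 1054 and 1090 CPM (1286 TPM), Psat1 at 529 TPM, Mthfd2 at 312 TPM and Aldh1l2 lowest at 10.5 TPM. All 7 genes of polyamine synthesis were expressed, led by Srm, spermidine synthase (585 TPM), and Odc1, ornithine decarboxylase (310 TPM), both known targets of Myc. The iron genes Fth1, ferritin heavy chain, and Tfrc stood at 442 and 386 TPM, and Slc40a1, the iron exporter, at 0.102 CPM.

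The machinery of protein synthesis took a large share of the counts. Families were taken by gene symbol, so those named Eif, Eef and Psm also hold related genes that are not factors or subunits themselves. Translation initiation factors and other Eif genes held 1.64 ± 0.0211% of all counts, and elongation factors and other Eef genes 1.25 ± 0.0116%. The tRNA synthetases held 0.665%, proteasome subunits and other Psm genes 0.770 ± 0.0113% and the HNRNP proteins of splicing and RNA transport 1.06%. All 20 genes of ribosome biogenesis were expressed at a median of 222 TPM, among them Npm1, nucleophosmin, at 1526 TPM, Ncl at 1488 TPM, the helicase Ddx21 at 663 TPM and, lowest, Fbl, fibrillarin, at 69.1 TPM. The 85 genes of cytosolic ribosomal proteins, of which 80 were expressed, held 2.12 ± 0.0722%, with Rpl4 (5993 TPM), Rpl8 (5063 TPM) and Rps15 (4232 TPM) highest. Of those 85 genes, 46 had 10 to 50% and 23 had 50% or more of their windows shared with other genes. Chaperones were all expressed, 21 of 21, from Hsp90ab1 and Calr (1732 TPM) down to the heat shock gene Hspa1a at 4.47 TPM. Replication-dependent histone genes held 0.00335% of the counts, and 7 of 67 were expressed. Their messengers end in a stem loop and carry no poly(A) tail, and the libraries were made with an mRNA kit, whose part in this level was not tested. Windows shared with other genes were not computed for this family, so low values of any close copies are uncertain here too.

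Genes that interferon gamma and type I interferon raise were unequal. Of 20 interferon response genes 19 were expressed, at a median of 73.9 TPM. Gbp2, a guanylate-binding protein (chr3:142620602-142638008, plus strand), stood at 1618, 1548 and 1586 CPM (2399 TPM), Igtp, an interferon-inducible GTPase, at 1368 TPM, and Irf1 at 467 TPM, whereas Ifit1, a classical type I target, stood at 24.2 TPM and Mx1 was lowest at 0.952 TPM. All 9 guanylate-binding protein genes were expressed and held 0.279% of the counts. All 12 genes of MHC class I and antigen processing were expressed, at a median of 391 TPM, with B2m, H2-K1 (2483 TPM) and H2-D1 (2034 TPM) highest and the immunoproteasome gene Psmb10 lowest at 140 TPM. All 18 survival and death genes were expressed, led by the kinase Pim1 (658 TPM) and Mcl1 (625 TPM), a protector of the mitochondrion, with Bcl2, its relative, at 167 ± 1.00 TPM.

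Among long noncoding RNAs, 8 of 13 were expressed: Gas5 stood at 338 ± 15.8 TPM and Malat1 at 331, 314 and 370 CPM. Mir155hg, the host transcript of miR-155, a microRNA that activated T cells use, had 13.4, 12.8 and 15.2 CPM. The mature microRNA was not measured by these libraries. Its sequence is given because the seed, bases 2 to 8 in capitals, sets which messengers it can pair with (chr16:84714143-84714165, plus strand, GRCm38.p6, RefSeq).
miR-155-5p: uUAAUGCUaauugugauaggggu

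Markers of other cells were mostly low, with exceptions. Of the CD8 genes, Cd8b1 had 12.1, 10.2 and 11.1 CPM (28.6 TPM) while Cd8a, the chain that both forms of the CD8 coreceptor contain, had 5, 29 and 19 counts, 0.596 ± 0.408 CPM. Both lie on chromosome 6, and their ranges over the libraries did not overlap. Of 8 NK cell genes only Nkg7 (5.84 ± 0.923 CPM) and Prf1 (1.63 CPM) met the expression limit, and the defining receptor Ncr1 had 2, 0 and 5 counts and Klra8 none. Trdc, the constant region of the delta chain of gamma-delta T cells, stood at 7.60, 6.96 and 9.49 CPM, and per length at 7.91 TPM against 1568 TPM for Trac. In total 4 of 6 gamma-delta and innate-like genes were expressed. For comparison, 47.6% of all protein-coding genes and 20.2% of all genes met the expression limit.

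B cell genes separated into immunoglobulin genes and the rest. Of 14 genes 4 were expressed, beside 47.6% of all protein-coding genes, and the summed level was 543 ± 23.4 CPM. Ighm, the mu heavy chain constant gene (chr12:113418558-113422730, minus strand), had 418, 448 and 418 CPM (865 TPM), and Igkc, the kappa light chain constant gene, 98.2, 111 and 105 CPM (750 TPM), with 0% of the windows of either gene shared. The defining B cell genes named here were far lower: Cd79a had 3.11 TPM, Cd79b 4.50 TPM, Ms4a1 0.376 TPM and Cr2, lowest, 0.0264 TPM. Over all immunoglobulin genes 31 of 432 were expressed, together 0.0703 ± 0.00334% of the counts, and variable segments summed to 41.7 ± 5.85 CPM for Ighv and 72.3 ± 5.89 CPM for Igkv. Jchain, the joining chain of secreted IgM, stood at 10.7 ± 0.659 CPM and the plasma cell marker Sdc1 at 3.80 CPM. Some segments were present in 1 or 2 libraries only: Ighv1-82 had 0, 5 and 137 counts, Igkv4-91 0, 12 and 76 counts and Ighv5-17 45, 0 and 50 counts. Which cells held these transcripts was not tested.

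Of 18 macrophage and monocyte genes 6 were expressed and 5 were near 0, where 47.6% of all protein-coding genes were expressed. Ctss, the protease cathepsin S, had 45.9, 43.6 and 49.6 CPM, Lyz2, lysozyme, 18.1, 10.7 and 14.05 CPM, Apoe, apolipoprotein E, 14.1, 16.9 and 14.1 CPM, and Cd68 8.08 CPM. The defining genes were lower: Csf1r, the receptor for macrophage colony-stimulating factor, had 25, 19 and 33 counts, Adgre1 (F4/80) 0.0352 CPM, and C1qa, Fcgr1 and Cd163 none. The series concerns vesicles of bone marrow-derived macrophages that have or lack Apoe, and these PBS cultures, which received none, had 402, 496 and 429 Apoe counts. Of 8 dendritic cell genes 3 were expressed, Bst2 at 93.0 ± 2.14 CPM, Zbtb46 at 8.03 CPM and Itgax at 1.79 CPM, and Clec9a and Cd209a had no count. All 10 MHC class II genes were expressed, H2-DMa at 92.7 and Cd74, the invariant chain, at 82.2 ± 2.46 CPM, with H2-Ab1 at 17.5, 16.0 and 19.2 CPM and the transactivator Ciita at 3.67 CPM.

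Genes of blood and stromal cells that met the expression limit were 1 of 9 for neutrophils, 2 of 10 for erythroid cells, 1 of 6 for platelets, 2 of 6 for mast cells and basophils and 1 of 7 for stroma and endothelium. Over all protein-coding genes the share was 47.6%. Of the neutrophil genes only Mpo, myeloperoxidase, was expressed (95, 138 and 118 counts), while Ly6g and Retnlg had none. The globin genes Hba-a1, Hba-a2, Hbb-bs and Hbb-bt were listed at 0 with 58.3 to 86.9% of their windows shared with one another, and Alas2, a gene of haem synthesis in red cells, had no count either. Of the platelet genes Itga2b was expressed (5.75 ± 1.18 CPM) and Pf4 stood at 0.558 CPM. Of the mast cell and basophil genes, Gata2 and Kit had 4.87 ± 0.257 and 3.82 ± 0.209 CPM. In the list of stroma and endothelium Pecam1, which leukocytes also carry, stood at 60.9 CPM and Col1a1 at 0.497 CPM.

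**Figure D3:**
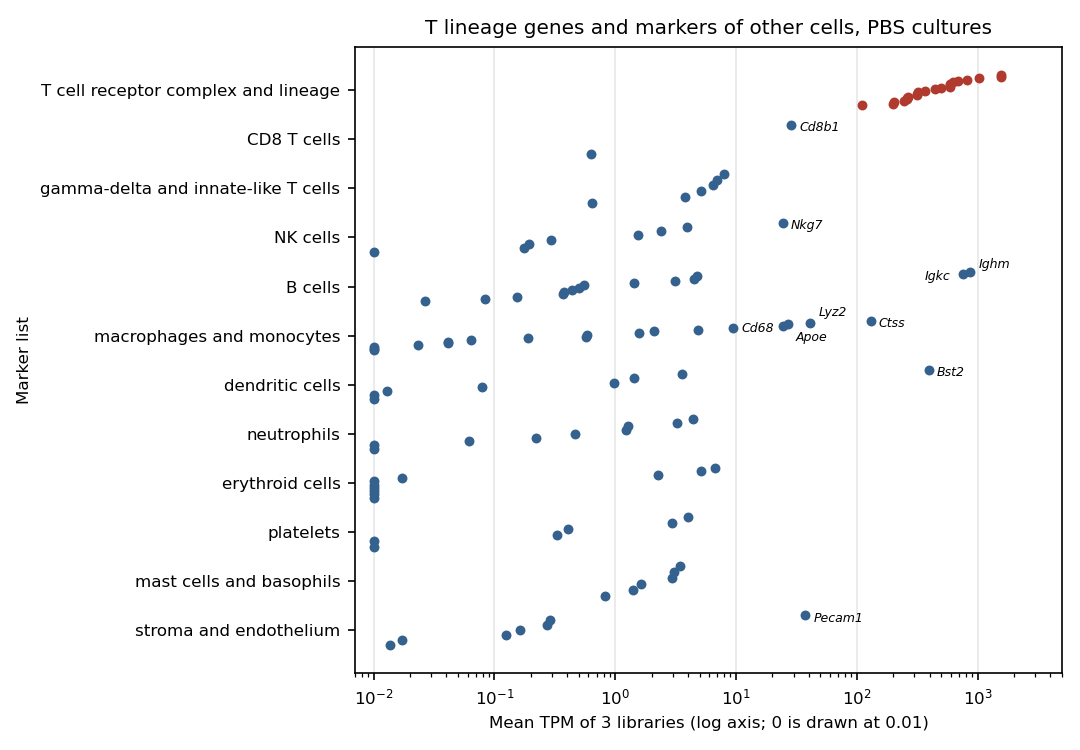
Mean TPM over the 3 PBS libraries (log axis, 0 drawn at 0.01) of each gene of the T lineage list (red) and of the lists for other cells (blue), 1 row for each list, with names at genes above 20 TPM outside the T lineage. The T lineage genes lie from 111 to 1568 TPM, and among the other lists drawn Ighm, Igkc, Bst2 and Ctss lie highest.

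The 3 cultures were close to each other. The Pearson correlation of log2 CPM was 0.992 to 0.993 for each pair over 11726 genes, a description across genes, which are not independent replicates. The counts of any pair differed by more than sampling noise, with a chi-square of 5.21 to 6.16 per degree of freedom, so no library was a copy of another. Over the 8592 genes with a mean of 10 CPM or more the median coefficient of variation (CV, the SD as a percentage of the mean) was 4.57%, with quartiles of 2.76 and 7.23%. For 4744 genes (55.2%) it was below 5%, and for 60 genes (0.698%) above 20%. After counting noise was removed, the common CV was 6.47% over 11726 genes, falling from 22.1% at 1 to 3 CPM to 3.13% at 1000 CPM or more.

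Some genes hardly differed between the libraries. Il2ra had a CV of 0.191%, below that of counting alone. Bax, a death effector, stood at 103 ± 0.0442 CPM and Mdh1, malate dehydrogenase, at 150 ± 0.0867 CPM. Their CVs of 0.0431% and 0.0576% also lay below counting alone, which gave 1.40% for genes of 100 to 300 CPM. Among many genes some fall below counting noise by chance, so these small SDs do not show that such genes were held steady. Irf4 had a CV of 0.684%, Hif1a of 0.766% and Cd44 of 0.822%. With 3 values the CV of a single gene is imprecise.

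The least steady genes at 10 CPM or more were of several kinds. Mir6236, a microRNA locus (chr9:110281287-110281409), had 22.6, 6.45 and 9.52 CPM and the largest CV, 66.8%. Gbp11 had 8.83, 9.76 and 16.7 CPM and Xaf1, an interferon-inducible gene, 8.76, 7.47 and 14.05 CPM, both highest in replicate 3. Isg20, another such gene, had a CV of 28.0%. Ighg2b, a heavy chain constant gene, stood at 14.99, 8.02 and 9.22 CPM, and Rpl37a, a ribosomal protein gene with 40.1% of its windows shared, at 30.8, 17.4 and 21.6 CPM. Between these in CV lay Thap1 (33.04%), Kcnq1ot1 (29.7%) and Lrsam1 (28.3%), and Zbtb12 was next below Isg20 at 27.6%. Relative to counting noise, measured as the ratio of variance to mean count, Gm42418 spread most, with a ratio of 1221. Among genes without a predicted or clone name Kmt2d, a histone methyltransferase, led with a ratio of 280 (960, 1053 and 1161 CPM), followed by Rnf213 at 179 (357, 355 and 440 CPM), Srrm2 at 175 (2080, 2193 and 2308 CPM), Mir6236 at 169, Ncl at 152, Kmt2a, another histone methyltransferase, at 149.9 (659, 668 and 767 CPM), Rps24 at 146 (215, 161 and 166 CPM), Ecm1 at 133 (276, 302 and 350 CPM), Lars2 at 126 (478, 396 and 464 CPM) and Aldoa at 118 (1488, 1503 and 1364 CPM). Kmt2d, Rnf213, Srrm2, Kmt2a and Ecm1 were highest in replicate 3, Mir6236, Ncl, Rps24 and Lars2 in replicate 1 and Aldoa in replicate 2. Besides the immunoglobulin segments above, Ptx3 (0, 30 and 19 counts) and Atp6v0d2 (25, 0 and 20 counts) were at 0 in 1 library where at least 20 counts were expected from the others.

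**Figure D4:**
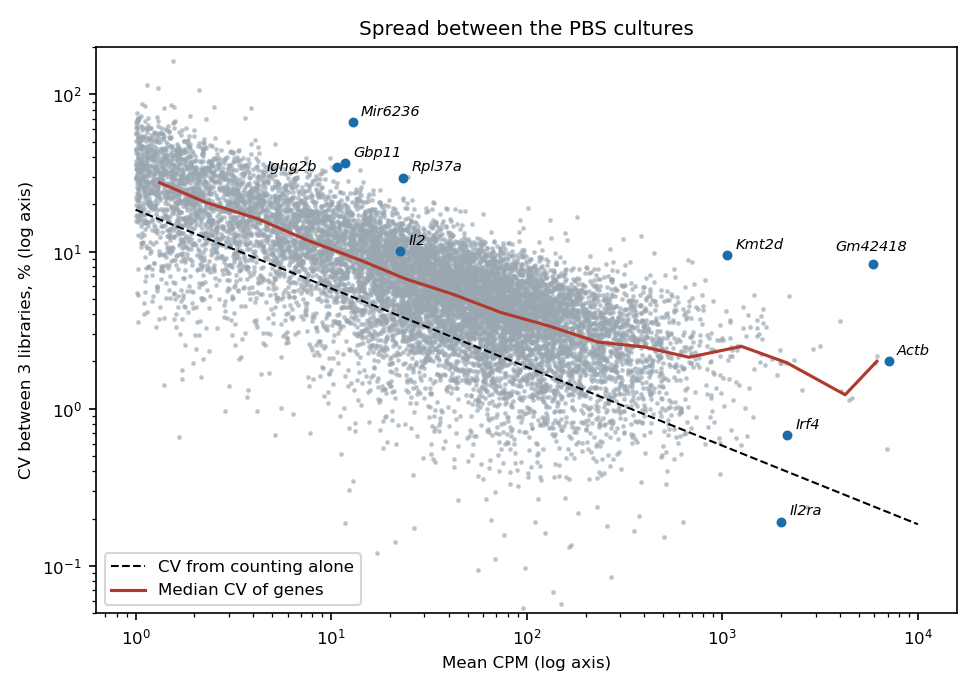
CV between the 3 PBS libraries in percent against mean CPM (both log axes) for genes at a mean of 1 CPM or more, with the median (red) and the CV from counting alone (dashed). Il2ra lies at 0.191% below the dashed line, and Mir6236, at 66.8%, and Gm42418 lie far above it.

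The spread followed gene length in part. Length here is that of the longest transcript. From the shortest 10% of genes at 10 CPM or more (243 to 1590 bases) to the longest 10% (6990 bases or more), the median log2 ratio of replicate 3 to replicate 1 went from -0.05 to 0.04. Among the shortest 45.2% of genes were highest in replicate 1, and among the longest 51.2% were highest in replicate 3. Across 8428 genes the Pearson correlation of that log2 ratio with log length was 0.18, against 0.15 for replicate 3 over 2 and 0.04 for replicate 2 over 1, again a description across genes. Of the 83 ribosomal protein genes with counts 63 were highest in replicate 1, 9 of the 12 genes under 1000 bases and 54 of the 71 longer ones. The part of length in the differences below was not tested.

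The lists moved between libraries by a few percent. The summed CPM of glycolysis differed from the mean of the libraries by 3.38% in replicate 2 and by -3.90% in replicate 3, and 17 of its 24 genes were highest in replicate 2. The pentose phosphate genes moved alike, by 3.50% and -5.05%. Interferon response genes differed from their mean by -2.41% in replicate 2 and by 2.49% in replicate 3, with 15 of 20 genes highest in replicate 3. In that library G1 and S genes differed from their mean by -1.92% and mitotic genes by -2.13%, and 4 of 36 and 2 of 24 genes were highest there. Ribosome biogenesis genes differed by 2.23% in replicate 1 and by -2.17% in replicate 3, and 0 of 20 were highest in replicate 3. Over all genes at 10 CPM or more, 34.4, 31.8 and 33.9% were highest in replicates 1, 2 and 3. The largest shift of surface activation genes was -0.453% and that of T lineage genes -0.736%, both in replicate 3. These are differences between single cultures, and no group was compared.

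**Figure D5:**
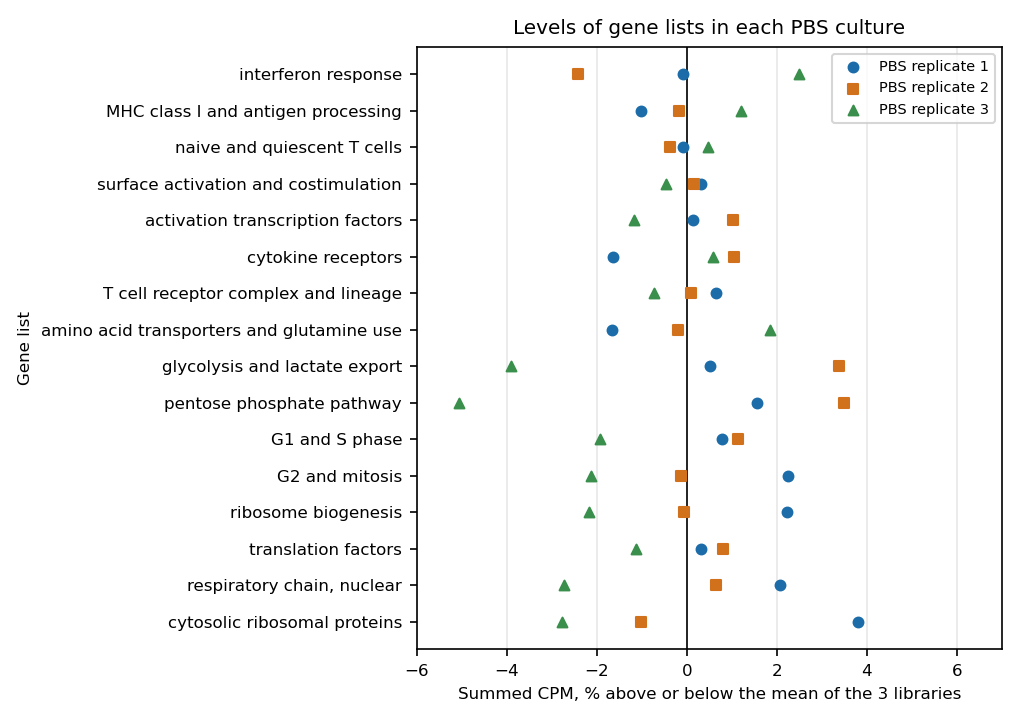
Summed CPM of gene lists in each PBS library, in percent above or below the mean of the 3 libraries (horizontal axis, linear, 0 marked). Glycolysis and the pentose phosphate pathway lie lowest in replicate 3, interferon response genes lie highest there, and the surface activation and T lineage lists stay within 1%.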

How the data were processed

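Messenger RNA libraries were sequenced from 3 PBS cultures of stimulated CD4+ T cells. Per the labels' protocols, total RNA was purified on RNeasy columns and made into Universal Plus mRNA-Seq libraries. Alignment was with STAR 2.7.5c to GRCm38, per the submitters' processing notes. The authors deposited raw counts, whole numbers for each gene that had not been normalized. No header or label records the counting tool, its strand setting, its annotation or its treatment of reads with several alignments. The 6 columns of the other groups were not used.

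Identifiers were matched by Ensembl ID to GENCODE M21 (GRCm38), and 55536 of 55536 had a symbol. CPM used the total of all genes in a library as the denominator, and TPM used the length of the union of exons. Totals were 28412418, 29298161 and 30464334 counts for replicates 1, 2 and 3. No test or p-value is given, since the libraries form 1 group. Windows of 50 bases were compared between annotated transcripts on both strands as exact strings. The CV beyond counting noise was estimated with edgeR 4.0.16 in R 4.3.3. The common CV was also estimated on simulated data with the same CV for every gene. That run does not check how the CV changes with level. Alternatives were TMM and DESeq2 1.42.0 size factors, mitochondrial genes left out, each library left out, other CPM limits and the longest transcript as gene length. Promoters and the microRNA are from RefSeq (GRCm38.p6).

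The 47 gene lists and the rule for named genes were chosen with earlier results of these data known. The rule names the 25 genes highest in CPM and 10 highest in TPM, up to 6 leading members and the lowest of each list, members said to be absent, the 10 genes with the largest CV and the 10 with the largest ratio of variance to mean, genes at 0 in 1 library, leading receptor and immunoglobulin genes, and a fixed set of T cell genes. Chosen after their values were seen were Actg1, Batf, Bcl2, Bcl2a1d, Ccdc22, Ccl22, Ccr4, Ccr8, Cd34, Cd40lg, Cdkn2a, Cpt1a, Csf1r, Csf2, Eno1, Fos, Fosb, Havcr2, Hspa1b, Ifit1, Il10, Il12rb1, Il13, Il21, Il23r, Il3, Il7r, Irf8, Jchain, Ldhb, Mdh1, Me1, Ms4a1, Nr1h3, Nr4a2, Pdcd1, Pgam1, Pgk1, Rps15, S1pr1, Scd1, Sdc1, Slc2a3, Trav14-1, Tuba1a, Tuba1b, mt-Nd6 and the pseudogenes named beside them. A few members of the lists are left out of the text and not reported here.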

Additional observations from a re-analysis of the deposited data

How the results depend on the processing

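The 11241 expressed genes and the 985 genes that hold 50% of the counts did not move by more than 1.5 times under any alternative run. There were 12217 expressed genes at a limit of 0.5 CPM and 10420 at 2 CPM. The median CV of 4.57% was 28.5% with no limit on CPM and 5.97% at a mean of 1 CPM or more, where genes with few counts enter, and 3.57 to 3.90% without 1 of the libraries, where it rests on 2 values. Of 79 list sums and gene levels none moved by more than 1 SD under TMM or DESeq2. Both scalings, as set here, leave the mean over the libraries almost unchanged, so this says little about the levels. With mitochondrial genes left out, 37 of 78 rose by more than 1 SD, by 2.41 to 2.42%. With the longest transcript as gene length, 33 of 45 median TPM values moved, from -23.7% for inhibitory receptors to 56.5% for polyamine synthesis, so comparisons of levels between genes carry that uncertainty. Of 713 single list genes 52 rose by more than 1.5 times, up to 2.58 times for Atp5j, and none fell as much. Depth limits genes near 3 counts per library. When 1 library was left out, list sums changed by -14.4 to 12.3%, and the level of Cd8a, with 5, 29 and 19 counts, by -33.0 to 35.3%; the cause was not tested. No paired analysis was possible because the 3 libraries form 1 group and the results come from no test.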

Other observations

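Some genes known from blood progenitor cells, picked from several lists, had counts in every library. Over all genes, 14885 of 55536 stood at 0.1 CPM or more in every library. Of protein-coding genes, 10479 of 22028 (47.6%) stood at 1 CPM or more in every library. Which cells held the transcripts named here was not tested. Gata2, a factor of stem and mast cells, had 130, 147 and 153 counts, Kit, the stem cell factor receptor, 106, 119 and 112, Itga2b, a platelet integrin chain, 174, 196 and 135, Mpo 95, 138 and 118, and Car2, a carbonic anhydrase, 130, 118 and 126. Car1 and Klf1, genes of red cell precursors, stood at 1.67 and 0.910 CPM, and Cd34, another progenitor marker, at 0.246, 0.137 and 0.821 CPM. Of 9 neutrophil genes 1 was expressed, 6 lay between the limits and 2 were near 0, and of 6 platelet genes the numbers were 1, 3 and 2. Of 10 erythroid genes they were 2, 1 and 7, and of 6 mast cell and basophil genes 2, 4 and 0.

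Mitochondrial ribosomal proteins, which the nucleus encodes, held 0.357 ± 0.0108% of the counts, with 77 of 78 genes expressed. The chaperonin CCT, which folds actin and tubulin, held 0.430%, with 7 of 8 genes expressed and Cct2 highest. SR splicing factors held 0.324 ± 0.00479%, with 10 of 11 genes expressed. Noncoding classes were small: 134 lincRNA genes were expressed and the class held 0.889 ± 0.0585% of the counts, and 113 antisense genes were expressed with 0.103 ± 0.00322%.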
